A study of Mus musculus with 10 samples.

Results

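Enterocytes of suckling mammals take up whole milk proteins at their apical surface, and the measurements follow 6 genes of that route in the jejunum. The 6 genes were Cubn, Amn, Dab2, Lrp2, Mcoln3 and Pllp. They were selected by gene symbol, and all 6 were found among the 24062 gene symbols of the count files and all 6 passed the filter on low counts that left 17632 genes for testing. Cubilin (Cubn) is a large peripheral receptor that has no membrane anchor and is carried to the surface by amnionless (Amn). Megalin (Lrp2) is a transmembrane receptor of the LRP family, receptors for lipoproteins and other ligands, that works beside cubilin, and Dab2 is the clathrin adaptor that binds the tails of these receptors. Mucolipin 3 (Mcoln3) is a cation channel of endosomes and lysosomes, and plasmolipin (Pllp) is a small membrane protein of the MAL family known for trafficking of endosomes in protein-absorbing enterocytes. This uptake is known to be strongest before weaning, and cubilin, amnionless and megalin are also known from the kidney tubule and the visceral yolk sac.

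The jejunum was taken at postnatal day 5 from C57BL/6 mice in 2 groups with 5 libraries each. WT mice were wild type, and KSR23 mice came from a cross of R23 mice, which carry a cassette for interleukin-23 (IL-23), with K14-cre mice, whose recombinase is driven by the keratin 14 promoter of keratinocytes rather than by a promoter of enterocytes. Each library was made from 100 pg of total RNA, and what was measured was RNA of the whole jejunum. In bulk tissue fewer cells of a type and less RNA per cell cannot be told apart. The libraries held 25.5 to 32.0 M counts in genes in WT and 31.2 to 60.9 M in KSR23 (M, 1000000 counts). Raw counts of the 2 groups are therefore at unlike depth. At these totals 3 counts, taken here as the floor, were 0.0492 to 0.118 counts per 1000000 (CPM). Replicates 4 and 5 of each group took middle values: they were the highest or lowest of 5 at 8.41% to 18.2% of 9056 autosomal genes, replicates 1 to 3 at 46.0% to 75.5%, and exchangeable libraries would give 40%. The results of the members are therefore given with all libraries and with replicates 1 to 3 alone. The study calls the jejunum samples biological replicates, with 5 per group. The labels do not say whether libraries came from separate mice, so p-values measure the spread between these libraries.

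The tissue carried markers of suckling epithelium. Lactase (Lct), the milk sugar enzyme, ranged over 415 to 700 CPM in WT libraries and 176 to 495 CPM in KSR23 libraries, and Mamdc4, a protein of the apical endosomes of suckling enterocytes, had 555 to 947 CPM in WT. Ass1, which was listed as a suckling marker, had at most 3 counts in any library, but 46.9% of its 75-base stretches also occur in another gene, so its counts are uncertain and do not show whether it was expressed. Of the markers of kidney, Umod and Slc22a6 had 0 counts in all 10 libraries and Slc34a1 had 0 counts in all WT libraries and 14, 5, 3, 3 and 1 in KSR23, a difference that passed the likelihood ratio test of edgeR (adjusted p = 0.00131) at these low counts.

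Cubn, the receptor, was lower in KSR23 jejunum and was the 1 member called by both tests of edgeR. The WT libraries (replicates 1 to 5) held 57.9, 55.2, 33.6, 56.2 and 48.3 CPM of Cubn. The KSR23 libraries held 12.1, 1.22, 17.4, 8.70 and 8.02 CPM. Each KSR23 library lay below each WT library, and KSR23 replicate 2, with 38 counts, was the lowest. Mean levels were 50.2 ± 9.98 CPM in WT and 9.50 ± 5.94 CPM in KSR23 (SD, n = 5), a fitted log2 fold change (log2 change, from here on) of -2.40 (SE 0.50, 95% interval -3.38 to -1.42), or 5.29-fold lower. The difference passed the likelihood ratio test of edgeR (adjusted p = 0.000112; a gene is called here at an adjusted p below 0.05) and its quasi-likelihood test (adjusted p = 0.00800). With replicates 1 to 3 alone the log2 change was -2.22. It was not called there by the likelihood ratio test (adjusted p = 0.151) or the quasi-likelihood test (adjusted p = 0.330). Over all tested genes the likelihood ratio test called 18.5%, with 8.76% lower and 9.73% higher in KSR23, the quasi-likelihood test called 15.4%, replicates 1 to 3 alone gave 3.36%, and 14.4% of genes had no overlap of CPM between groups.

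Cubn (chromosome 2, 13276338 to 13491813, minus strand, build mm10) has a longest annotated transcript of 11.3 kb. Among 865 tested genes above 8 kb, 4.28% were called lower and 12.5% higher. Among 4289 tested genes up to 2 kb, 17.2% were called lower and 5.22% higher. The part of transcript length in the level of Cubn was not tested. The exons of Cubn overlap Gm13270, which is not in the count files, over a short stretch, and 2.03% of its 75-base stretches also occur in another gene.

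Amn, the anchor of cubilin, varied so widely between libraries that a difference was not detectable. It held 10.6, 85.7, 261, 54.0 and 57.3 CPM in the WT libraries. It held 215, 7.93, 6.00, 70.3 and 5.96 CPM in the KSR23 libraries. WT replicate 3 and KSR23 replicate 1 were far above the rest, 3 KSR23 libraries lay below each WT library, and the groups overlapped. The level varied 24.6-fold within WT and 36.0-fold within KSR23. The fitted log2 change was -0.62 (SE 0.95, 95% interval -2.48 to 1.24, adjusted p = 0.719), an interval that holds both no change and a fall as large as that of Cubn. The value rested on single libraries: it was 0.23 without WT replicate 3 and -1.99 without KSR23 replicate 1, neither of them called (adjusted p = 0.918 and 0.117). It was -0.62 in replicates 1 to 3 alone (adjusted p = 0.910).

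The libraries in which Amn was low were in part those in which GC-rich transcripts were low. The median log2 deviation of 207 genes over 60% GC from their mean was -1.19 for WT replicate 1 and -1.36 for KSR23 replicate 3. The other 8 libraries stood at -0.39 to 0.80. Amn (chromosome 12, 111271095 to 111276426, plus strand), whose transcript is 62.9% GC, deviated by -1.71 and -2.49 in those 2 libraries. It was as low in KSR23 replicates 2 and 5 (-2.12 and -2.50), where the GC-rich genes stood at 0.36 and -0.17. The log2 change of Amn was -0.93 with a GC offset (adjusted p = 0.424) and -0.62 without those 2 libraries (adjusted p = 0.678).

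**Figure D1:**
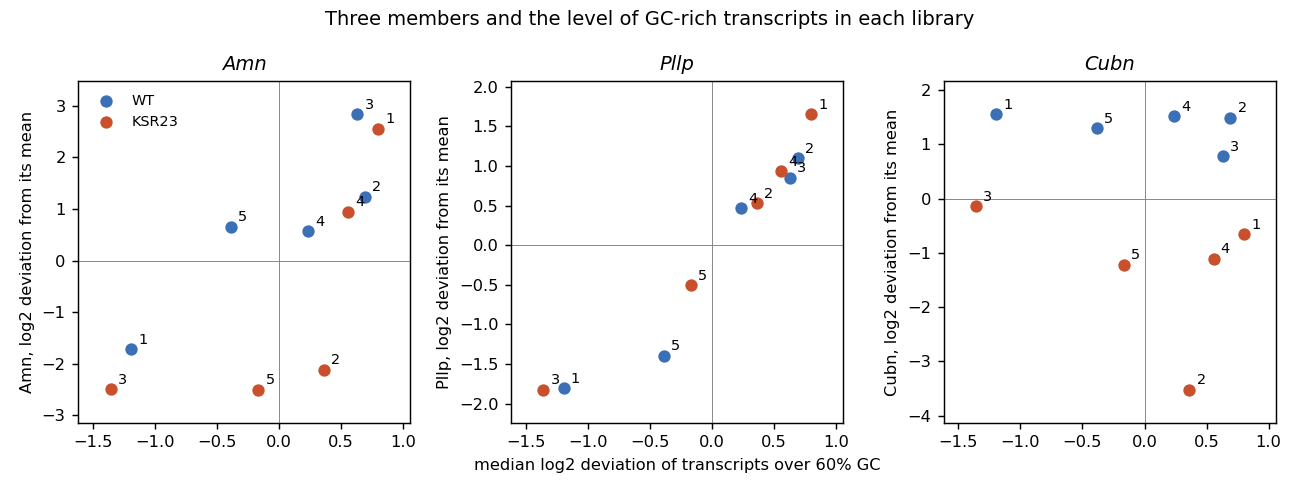
Log2 deviation of Amn, Pllp and Cubn from their mean over 10 libraries (y axis) against the median log2 deviation of 207 transcripts over 60% GC (x axis), 1 point per library with its replicate number. Pllp lay along the GC-rich level from -1.82 to 1.65, and Cubn separated by group. Amn followed that level loosely, with KSR23 replicates 2 and 5 low and WT replicate 5 high for their GC-rich level.

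No difference was called in Dab2, the adaptor. It held 602, 574, 480, 568 and 594 CPM in WT, a narrow range. It held 729, 206, 747, 560 and 476 CPM in KSR23. KSR23 replicates 1 and 3 lay above all WT libraries and replicates 2 and 5 below them. Means were 564 ± 48.8 CPM in WT and 543 ± 221 CPM in KSR23 (SD, n = 5), with a log2 change of -0.05 (SE 0.33, adjusted p = 0.939) and a 95% interval of -0.70 to 0.59. The sign of this value was not stable: with replicates 1 to 3 alone it was 0.05 (adjusted p = 0.986).

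Within each group the levels of Cubn and Dab2 varied together from library to library, and the groups were set apart by their ratio. The log2 ratio of Cubn to Dab2 was -3.38, -3.38, -3.84, -3.34 and -3.62 in the WT libraries. It was -5.91, -7.38, -5.42, -6.01 and -5.89 in the KSR23 libraries. The ranges did not overlap. The mean fell from -3.51 ± 0.21 to -6.12 ± 0.74 (SD, n = 5), a difference of -2.61 on the log2 scale or 6.11-fold (two-sided exact permutation p = 0.00794, the smallest that 252 assignments can give; adjusted p = 0.0476 over 6 ratios). Both genes are read in the same library, so library scaling cancels in this value. With replicates 1 to 3 alone the difference was -2.70 (exact permutation adjusted p = 0.6), where 3 against 3 cannot go below an unadjusted p of 0.1.

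**Figure D2:**
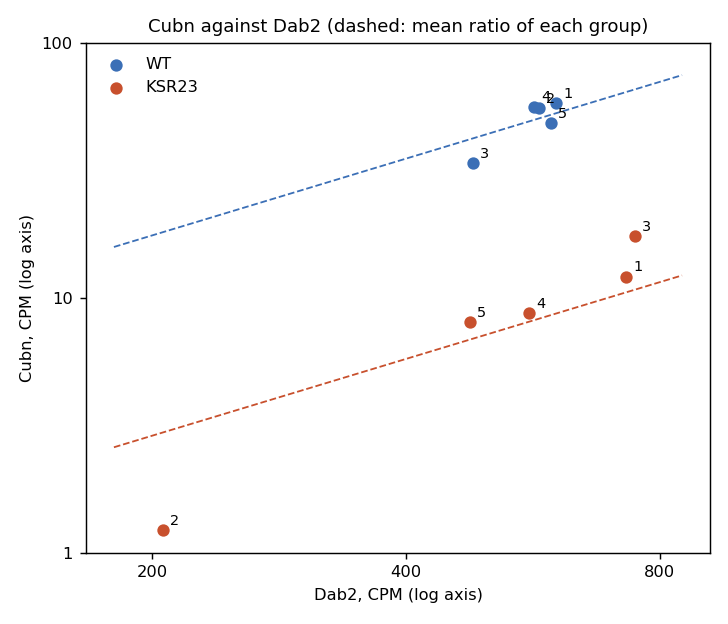
CPM of Cubn (y axis) against CPM of Dab2 (x axis), both on log axes, for 10 libraries numbered by replicate, with the mean ratio of each group as a dashed line. WT libraries lay near a log2 ratio of -3.51 and all KSR23 libraries well below it, near -6.12, with KSR23 replicate 2 lowest in both genes.

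Another 4 ratios fixed for comparison were not separated. The log2 ratio of Cubn to Amn differed by -1.31 between KSR23 and WT (exact permutation p = 0.373, adjusted p = 0.825) and ran from -2.96 to 2.44 within WT alone. Cubn to Lrp2, with Lrp2 at 0 or 1 count in 3 KSR23 libraries, differed by -0.51 (exact permutation p = 0.643), Mcoln3 to its paralog Mcoln1 by 0.39 (p = 0.730, exact permutation) and Pllp to its paralog Mal2 by -0.66 (exact permutation p = 0.460). Each of these had an adjusted p of 0.825 over the 6 ratios. Their sizes rested on single libraries: with 1 library left out Cubn to Amn ran from -2.09 (without KSR23 replicate 3) to -0.63 (without WT replicate 1), Cubn to Lrp2 from -1.27 (without KSR23 replicate 1) to -0.01 (without KSR23 replicate 2) and Pllp to Mal2 from -1.05 (without WT replicate 1) to -0.17 (without KSR23 replicate 3). With 2 counts added in place of 0.5, Cubn to Lrp2 differed by -1.18.

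The stretches before the transcription starts of Cubn and Dab2, the pair that moved together within groups and parted between them, are shown beside those of Amn and Mcoln3. They come from RefSeq (build GRCm38.p6), read 5' to 3' on the strand of the gene within the 250 bases before the start, and are cut to bases outside annotated exons. All 6 members matched an entry. Both strands were searched for 5 motifs. The letters were GTTAAT for an HNF1 half-site, CAAAGTCCA for HNF4, TTTATNG for the intestinal CDX factors and TTCNNNGAA for STAT, the family that signals below the IL-22 and IL-23 receptors. For the zinc finger factors of the GATA family, which are known from the proximal intestine, the motif searched was AGATAA. Capitals mark a match.
Cubn, chr2:13491877-13492126, minus strand: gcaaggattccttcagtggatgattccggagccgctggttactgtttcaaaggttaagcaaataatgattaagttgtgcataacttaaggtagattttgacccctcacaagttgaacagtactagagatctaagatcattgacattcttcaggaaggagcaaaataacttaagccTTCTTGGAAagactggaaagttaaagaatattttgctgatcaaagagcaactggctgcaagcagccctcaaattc
Dab2, upstream start, chr15:6299539-6299787, plus strand: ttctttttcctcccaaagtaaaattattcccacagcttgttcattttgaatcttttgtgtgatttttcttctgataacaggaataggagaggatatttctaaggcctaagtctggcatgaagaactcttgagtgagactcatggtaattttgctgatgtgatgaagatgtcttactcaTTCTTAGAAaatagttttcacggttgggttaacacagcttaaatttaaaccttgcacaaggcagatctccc
Amn, chr12:111270846-111271094, plus strand: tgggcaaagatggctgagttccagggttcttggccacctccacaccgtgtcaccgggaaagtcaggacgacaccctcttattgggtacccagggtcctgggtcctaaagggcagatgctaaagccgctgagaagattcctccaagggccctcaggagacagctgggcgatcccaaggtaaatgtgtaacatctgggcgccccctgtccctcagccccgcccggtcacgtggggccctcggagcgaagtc
Mcoln3, chr3:146121541-146121671, plus strand: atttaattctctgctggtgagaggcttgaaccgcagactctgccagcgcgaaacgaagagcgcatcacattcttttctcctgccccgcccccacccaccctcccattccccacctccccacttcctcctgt
Cubn and the upstream start of Dab2 each held 1 STAT match, which 7.02% of 32851 promoters of this length hold, and the motifs do not overlap another match there. The second start of Dab2 held the HNF1 half-site, which 6.43% of promoters hold, in a part that is exonic and is not printed. No motif was found before Amn, Lrp2, Mcoln3 or Pllp, and the shares of all promoters with HNF4, GATA and CDX matches were 0.384%, 9.99% and 9.81%. A match is a run of letters and not a measured site.

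Lrp2, the partner receptor, was near the limit of detection. It had 4, 10, 10, 7 and 23 counts in the WT libraries. It had 0, 1, 7, 9 and 1 counts in the KSR23 libraries. KSR23 replicates 1, 2 and 5 were at or under the floor of 3 counts, and the 2 other KSR23 libraries lay within the WT range. The mean was 0.382 ± 0.288 CPM in WT and 0.0996 ± 0.117 CPM in KSR23 (SD, n = 5). The log2 change of -1.96 (SE 0.91, 95% interval -3.74 to -0.18) was not called (adjusted p = 0.125; quasi-likelihood adjusted p = 0.193), nor with replicates 1 to 3 alone (-1.49, adjusted p = 0.740). It was called without KSR23 replicate 3 (-2.68, adjusted p = 0.0278), so 1 library of 7 counts decided the call. Lrp2 (chromosome 2, 69424340 to 69586065, minus strand) has a transcript of 15.5 kb, the longest of the 6.

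Mcoln3, the endosomal channel, was abundant and somewhat lower in KSR23. It held 450, 272, 248, 353 and 420 CPM in WT. It held 177, 87.1, 313, 148 and 195 CPM in KSR23. Apart from KSR23 replicate 3, which fell inside the WT range, all KSR23 values were under the lowest WT value. The mean fell from 349 ± 88.5 CPM to 184 ± 82.9 CPM (SD, n = 5), a log2 change of -0.92 (SE 0.34, 95% interval -1.59 to -0.25) or 1.89-fold, which the likelihood ratio test called narrowly (adjusted p = 0.0433) and the quasi-likelihood test did not (adjusted p = 0.0683). The call was lost when any library other than WT replicate 3 or KSR23 replicate 3 was left out, with adjusted p up to 0.138, and with replicates 1 to 3 alone (-0.71, adjusted p = 0.692). Its direction was lower in all of these. WT replicate 1 and KSR23 replicate 3, the libraries lowest in GC-rich transcripts, held the most Mcoln3 of their groups. The log2 change was -1.08 with a GC offset (adjusted p = 0.00977), which also moved the median of all tested genes from 0.03 to -0.09. It was -1.09 without those 2 libraries (adjusted p = 0.00584), and Mcoln3 was called in both settings. Mcoln3 lies on chromosome 3, 146117450 to 146141806, plus strand.

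Pllp showed no group difference. It held 1.18, 12.0, 10.1, 7.60 and 1.73 CPM in WT. It held 17.9, 7.93, 1.15, 10.7 and 3.61 CPM in KSR23. The libraries at the bottom, WT replicates 1 and 5 and KSR23 replicates 3 and 5, were those with the lowest level of GC-rich transcripts, and the plot of Pllp against that level shows the order of the libraries in both groups. The log2 change was 0.34 (SE 0.71, 95% interval -1.05 to 1.73, adjusted p = 0.799), 0.30 with a GC offset (adjusted p = 0.807), 0.36 without WT replicate 1 and KSR23 replicate 3 (adjusted p = 0.717), 0.25 with replicates 1 to 3 alone (adjusted p = 0.959) and -0.10 without KSR23 replicate 1 (adjusted p = 0.945). Pllp (chromosome 8, 94674894 to 94696278, minus strand) shares exon sequence with the antisense gene Gm45767, which is not in the count files, and 40.6% of its 75-base stretches occur in another gene, so its counts are uncertain where the strand was not used.

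**Figure D3:**
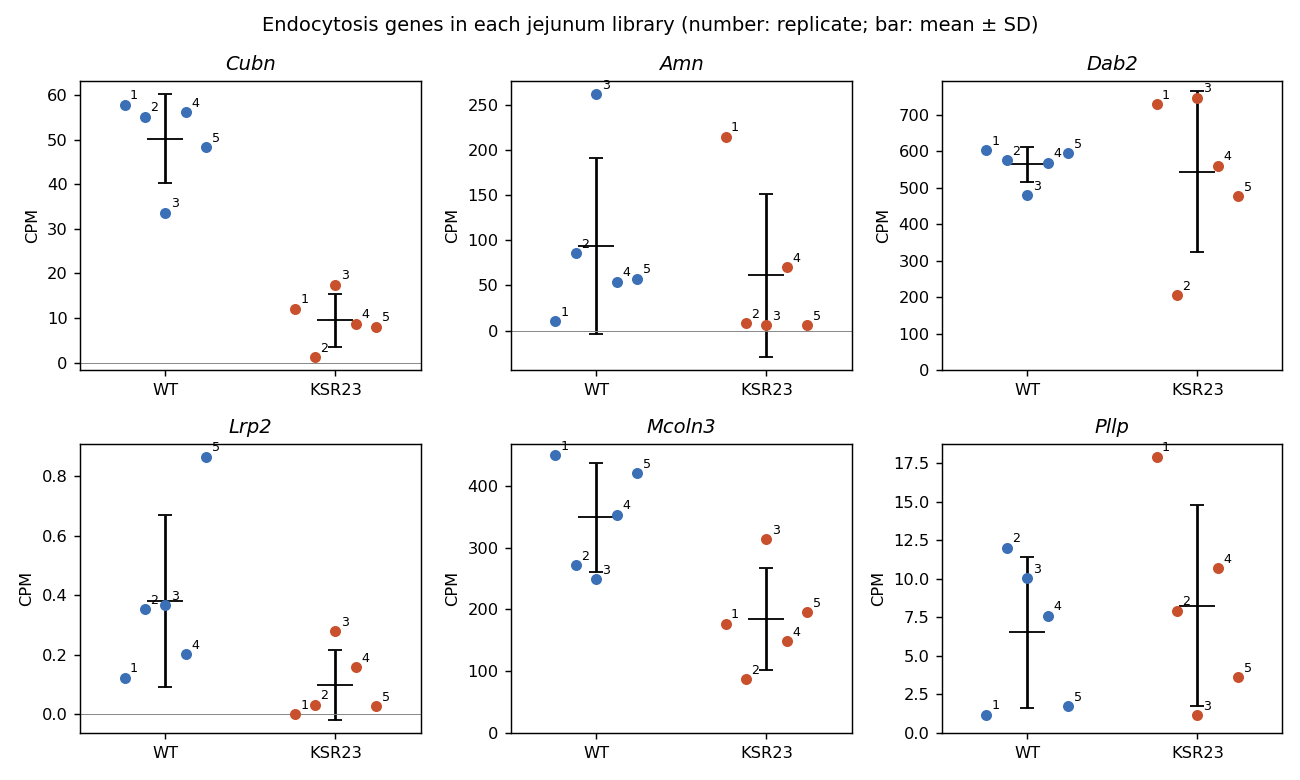
CPM of the 6 genes in each of 10 libraries (y axis, linear, from 0 or below for the error bar), with the replicate number beside each point and bars for mean ± SD of 5 libraries. Cubn is the gene whose groups do not overlap, with 33.6 CPM as the lowest WT value and 17.4 CPM as the highest KSR23 value.

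Of the 6 members, the likelihood ratio test called 2, both lower, beside 18.5% of all tested genes, and the quasi-likelihood test called 1. The median log2 change of the 6 was -0.77, and that of all tested genes 0.03. With replicates 1 to 3 alone both tests of edgeR called 0 of 6, where the likelihood ratio test called 3.36% of all tested genes. In each test 1 of 6 had an unadjusted p under 0.05. The share of all tested genes under that unadjusted threshold was not counted, here or for the lists below. Among the 6, 1 gene had no overlap of CPM, beside 14.4% of all tested genes.

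Levels were compared between genes per kb of the longest annotated transcript. In WT, Dab2 (121 ± 10.5 CPM per kb) and Mcoln3 (117 ± 29.6) were highest and did not differ beyond their spread. Amn followed (55.1 ± 57.3, SD, n = 5), with a spread that reached the first pair. Cubn (4.46 ± 0.886) and Pllp (3.38 ± 2.54) lay lower and overlapped each other, and Lrp2 was last (0.0247 ± 0.0186). In KSR23 the order was Dab2 (117 ± 47.3 CPM per kb), Mcoln3 (61.5 ± 27.7), Amn (35.8 ± 53.0), Pllp (4.29 ± 3.40), Cubn (0.843 ± 0.528) and Lrp2 (0.00644 ± 0.00759) by their means. Cubn and Pllp overlapped in KSR23 as well: Pllp was above Cubn in WT replicates 2 and 3 and in all KSR23 libraries except replicate 3. How evenly libraries primed at the poly(A) tail covered these lengths cannot be read from count tables.

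The members were then set against transcripts of the epithelium in the same library. The 8 pan-epithelial genes Epcam, Cdh1, Vil1, Krt8, Krt18, Krt19, Krt20 and Cldn7 summed to 2738 to 5572 CPM in WT and 5439 to 9337 CPM in KSR23. The part of the epithelial share of the tissue in the level of Cubn was not tested. Of these 8 genes, Krt20, a keratin of mature villus cells (log2 change 2.22, SE 0.36, adjusted p = 1.27e-07), and Cdh1, the epithelial cadherin (1.11, SE 0.38, adjusted p = 0.0260), were the 2 called, both higher, and Cdh1 was not called by the quasi-likelihood test (adjusted p = 0.0572). Of all tested genes, 9.73% were called higher. Krt20 made up 9.56% of the sum in WT and 24.8% in KSR23 on average. Relative to this sum Cubn differed by -3.53 on the log2 scale (-6.33 ± 0.67 in WT, -9.86 ± 1.78 in KSR23, SD, n = 5, exact permutation p = 0.00794, adjusted p = 0.0476 over 6 tests), and the groups did not overlap. This did not pass without WT replicate 1, 4 or 5 (-3.34, -3.49 and -3.47, exact permutation adjusted p = 0.0794, 0.0794 and 0.0952). Relative Mcoln3 differed by -1.75 (exact permutation p = 0.0238, adjusted p = 0.0476), with 4 KSR23 libraries below the WT range. With 1 library left out, Mcoln3 passed only when that library was KSR23 replicate 3. Lrp2 had 0 or 1 count in 3 KSR23 libraries, so its relative level there is an upper bound. With counts under 3 set to the floor of 3, Lrp2 was lower in KSR23 by 2.24 or more on the log2 scale, also with 4 libraries below the WT range (-2.24, exact permutation p = 0.0159, adjusted p = 0.0476). Amn (-2.23, exact permutation p = 0.103), Dab2 (-0.92, exact permutation p = 0.103) and Pllp (-0.39, exact permutation p = 0.651) did not pass. Beside the mean log2 level of the same 8 genes, which gives Krt20 less weight, Cubn passed, but Mcoln3 (-1.61, exact permutation adjusted p = 0.0714) and Lrp2 (exact permutation adjusted p = 0.0794) did not. With replicates 1 to 3 alone the differences were -3.52 for Cubn and -1.51 for Mcoln3, and no pass was possible there for these or Lrp2, since 3 against 3 cannot go below an unadjusted exact permutation p of 0.1.

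**Figure D4:**
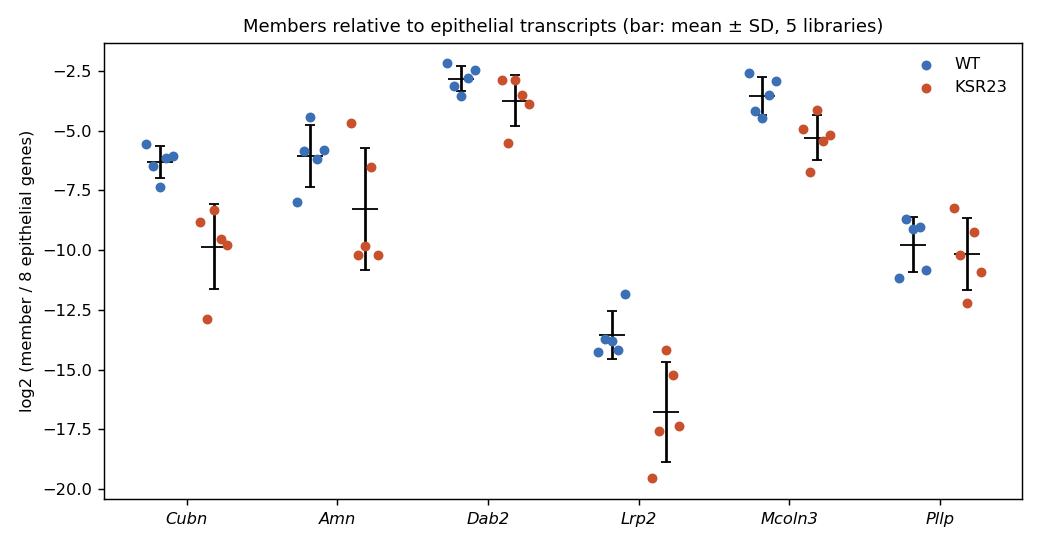
Log2 of each member's CPM over the summed CPM of 8 epithelial genes (y axis, with 0.5 added counts), 1 point per library, with bars for mean ± SD of 5 libraries. Cubn is separated between WT (-7.37 to -5.56) and KSR23 (-12.9 to -8.31), and the other 5 genes overlap between the groups.

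Other cell types hold these transcripts too. Calls among their markers are to be read beside the 8.76% of all tested genes called lower and 9.73% called higher. Dab2 is known in macrophages and stroma. The 8 macrophage markers summed to 752 to 933 CPM in WT and 547 to 697 CPM in KSR23, with Cd68, C1qb and C1qc called lower and Cd163 higher. C1qc was not called by the quasi-likelihood test (adjusted p = 0.0696), nor C1qb with a GC offset (adjusted p = 0.207). Of 7 stromal and smooth muscle markers, Dcn and Acta2 were the 2 called, both lower (2328 to 3913 CPM summed in WT, 2226 to 2853 CPM in KSR23), and Acta2 was not called by the quasi-likelihood test (adjusted p = 0.0538). Of the genes listed for the yolk sac, Afp fell from 10.8 to 13.4 CPM in WT to 0.796 to 3.13 CPM in KSR23 (log2 change -2.52, adjusted p = 2.59e-09). Ttr fell from 269 to 631 CPM to 6.64 to 60.1 CPM (-3.79, adjusted p = 1.27e-11), and both were without overlap. The tissue was jejunum, and which of its cells held Afp and Ttr was not measured. Of 6 markers of glia and Schwann cells, which summed to 86.3 to 118 CPM in WT and 99.0 to 128 CPM in KSR23, Erbb3 was called higher and S100b lower. The part of these cells or of an altered epithelial program in the levels of Cubn and Dab2 was not tested.

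Position along the intestine was read from 2 lists, since cubilin and amnionless are best known from its distal part. Of all tested genes, 8.76% were called lower and 9.73% higher. Of 5 proximal markers, Cybrd1, the duodenal ferric reductase (log2 change -1.71, adjusted p = 1.75e-07), and Fabp1, a fatty acid carrier (-1.01, adjusted p = 0.0351), were lower in KSR23, while Slc40a1 (0.56, adjusted p = 0.155), Gata4 (0.35, adjusted p = 0.458) and Onecut2 (-0.30, adjusted p = 0.759) were not called. Of 5 distal markers, Slc10a2, the ileal bile acid carrier, was higher (2.79, adjusted p = 0.0384) at no more than 1.35 CPM in any library, and was the 1 called. Distal Fgf15 stood at -1.81 (adjusted p = 0.349), Fabp6 at 1.38 (adjusted p = 0.214), and Slc51a and Slc51b at 0.07 and 0.06. The quasi-likelihood test called Cybrd1 and neither Fabp1 (adjusted p = 0.0822) nor Slc10a2 (adjusted p = 0.0923). The part of the sampled position in the level of Cubn was not tested.

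Among 10 partners and ligands of the receptors, 4 were called, all lower, beside 8.76% of all tested genes called lower, and the median log2 change was -0.45. Fcgrt, the neonatal Fc receptor that carries milk immunoglobulin across the enterocyte, fell from 11372 to 16669 CPM in WT to 1263 to 9046 CPM in KSR23, with no overlap (log2 change -1.58, SE 0.40, adjusted p = 0.00183). Lrpap1, the chaperone of megalin and its relatives, fell by 0.72 on the log2 scale (SE 0.26, adjusted p = 0.0337), also without overlap. The vitamin D-binding protein Gc (-2.25, adjusted p = 0.00812) and albumin, Alb (-2.16, adjusted p = 0.0439), both known ligands, were lower at means under 2 CPM. Tcn2, the carrier of vitamin B12 in blood, had a log2 change of -0.34 (adjusted p = 0.506), Apoa1 of -0.50 (adjusted p = 0.567) and transferrin, Trf, of -0.39 (adjusted p = 0.336). The adaptor Gipc1 (-0.01, adjusted p = 0.997) and the receptor Cd320 (0.33, adjusted p = 0.771) did not pass. The quasi-likelihood test called 3 of the 10, without Alb (adjusted p = 0.0938). Gif, the gastric intrinsic factor whose complex with vitamin B12 is bound by cubilin, had at most 8 counts in a library. With replicates 1 to 3 alone both tests of edgeR called 0 of the 10, where the likelihood ratio test called 3.36% of all tested genes, and an unadjusted p under 0.05 was reached by 2 (likelihood ratio) and 0 (quasi-likelihood).

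Calls in the families of Lrp2, Mcoln3 and Pllp are to be read beside the 18.5% of all tested genes called, with 9.73% called higher. Among 13 genes of the LRP family, Lrp2 included, 1 was called. Lrp8, an apolipoprotein E and reelin receptor, rose from 0.341 ± 0.169 CPM to 1.60 ± 0.725 CPM (2.23, SE 0.51, adjusted p = 0.000328). The likelihood ratio test did not call the other paralogs. Their log2 changes were 0.19 for Vldlr, 0.23 for Lrp1, 2.54 for Lrp1b at under 1 CPM, -1.63 for Lrp3 and -0.14 for Lrp4. Those of Lrp5, Lrp6, Lrp10, Lrp11, Lrp12 and Sorl1 were -0.17, 0.84, 0.26, -0.56, 0.77 and 0.68. DESeq2, run as an alternative test, called Lrp12 higher (adjusted p = 0.0367). Lrp3 was called lower with a GC offset (-1.74, adjusted p = 0.0324).

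Of the 5 mucolipin and two-pore channels of endosomes and lysosomes, Mcoln3 was the 1 called. Mcoln2 stood at 14.9 ± 1.79 CPM against 24.2 ± 8.31 CPM in KSR23 (SD, n = 5; log2 change 0.70, adjusted p = 0.0965). Mcoln1 had a log2 change of -0.73 (adjusted p = 0.592), Tpcn1 of -0.68 (adjusted p = 0.295) and Tpcn2 of 0.53 (adjusted p = 0.238). Of the 9 genes of the MAL and CMTM family, which holds plasmolipin, Mal2, a protein of apical transcytosis, rose from 12.4 ± 2.85 CPM to 25.3 ± 7.01 CPM (SD, n = 5; 1.03, SE 0.31, adjusted p = 0.00858), without overlap. The others of that family did not pass, with log2 changes of 0.43 for Mal, 0.67 for Mall, -0.44 for Cmtm3, -0.31 for Cmtm4, 1.13 for Cmtm6, -0.05 for Cmtm7 and -0.87 for Cmtm8.

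**Figure D5:**
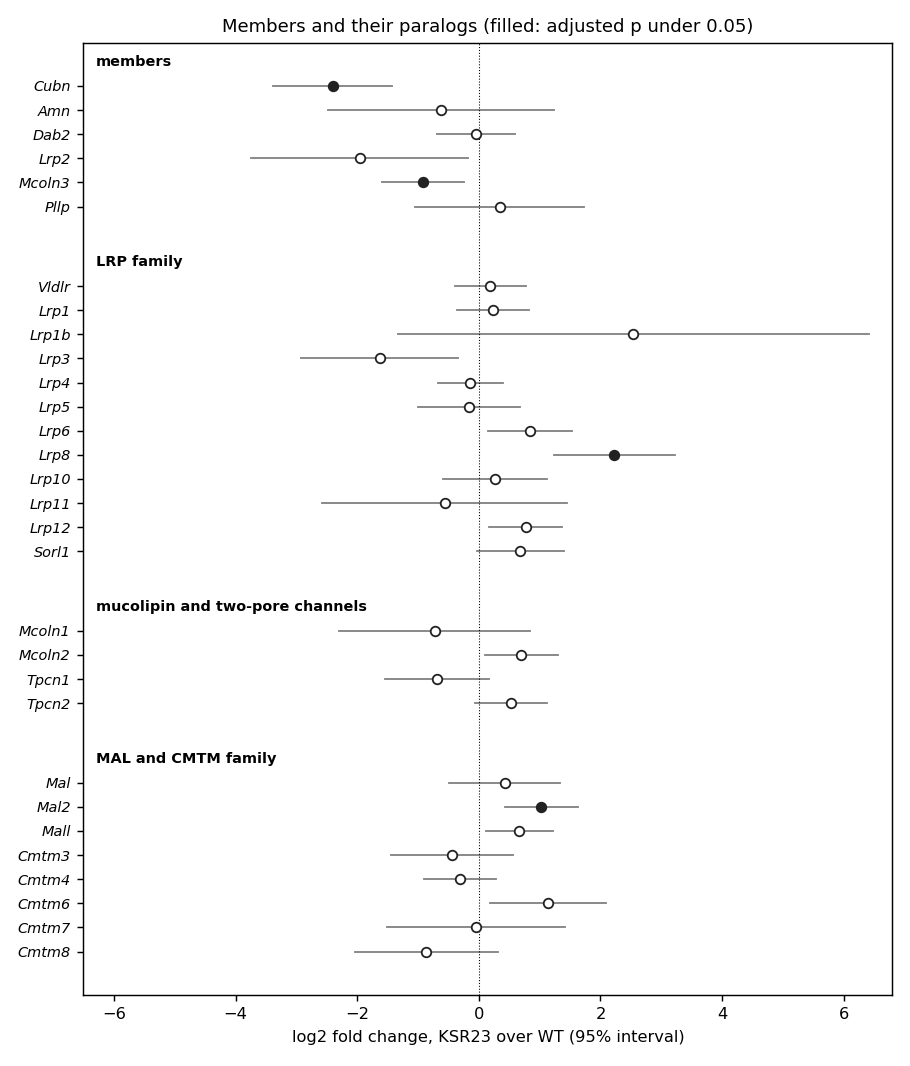
Log2 fold change of KSR23 over WT (x axis) with 95% intervals for the 6 members and for the genes of the LRP, mucolipin and two-pore channel, and MAL and CMTM families, from the fit of all 10 libraries. Filled points have an adjusted p under 0.05: Cubn (-2.40) and Mcoln3 (-0.92) to the left, and Lrp8 (2.23) and Mal2 (1.03) to the right.

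Genes of the endocytic machinery below the receptors are to be read beside the 9.73% of all tested genes that were called higher. Of 28 genes of the clathrin coat and its adaptors, Dab2 included, 3 were called, all higher, with a median log2 change of 0.35. They were Cltc, the clathrin heavy chain, which rose from 195 ± 39.97 CPM to 405 ± 79.8 CPM (SD, n = 5; 1.05, adjusted p = 0.00103), Fcho2, a nucleator of coated pits (0.996, adjusted p = 0.00234), and Eps15, an endocytic scaffold (0.81, adjusted p = 0.0164), each without overlap. The quasi-likelihood test called Synj1 as well (0.64, adjusted p = 0.0468), and with a GC offset Dnm2, the dynamin that cuts off coated vesicles (1.33, adjusted p = 0.0331), and Hip1r (0.90, adjusted p = 0.0478) were added, all higher. Of 27 tested genes of apical endosomes and recycling, 3 were called, all higher: Rab11fip1 (1.18, adjusted p = 0.0468), Appl1 (0.67, adjusted p = 0.0467) and the endosomal chloride transporter Clcn5 (0.85, adjusted p = 0.0426). With a GC offset none of these 3 was called (adjusted p = 0.0692, 0.0976 and 0.0882) and Stx7, a syntaxin of late endosomes, was called lower (-0.62, adjusted p = 0.0442). The quasi-likelihood test did not call Rab11fip1 (adjusted p = 0.0778). Mamdc4 stood at 0.10 (adjusted p = 0.873). Of 18 subunits of the vacuolar proton pump, which acidifies endosomes, the likelihood ratio and quasi-likelihood tests of edgeR and DESeq2 each called 0, with 4, 5 and 5 at an unadjusted p under 0.05. With a GC offset Atp6v0e (-0.77, adjusted p = 0.0381) and Atp6v1e1 (-0.79, adjusted p = 0.0331) were called lower.

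Endocytosed milk protein is degraded in the lysosome. Of 20 lysosomal genes 4 were called lower and 1 higher, beside 18.5% of all tested genes called in either direction, with a median log2 change of -0.25. The protease cathepsin L (Ctsl) fell from 2462 to 9323 CPM in WT to 434 to 2111 CPM in KSR23 (log2 change -2.46, SE 0.44, adjusted p = 5.08e-06), the membrane protein Lamp1 by 1.29 on the log2 scale (adjusted p = 0.000621), cathepsin H (Ctsh) by 1.11 (adjusted p = 0.000839) and Cd63 by 0.91 (adjusted p = 0.00943), all without overlap. With a GC offset Cd63 was not called (-0.91, adjusted p = 0.155). The lysosomal galactosidase Glb1 rose (0.92, adjusted p = 0.00275). In replicates 1 to 3 alone Ctsl was the 1 lysosomal gene called by the likelihood ratio test (adjusted p = 0.0470). The quasi-likelihood test did not call it there (adjusted p = 0.246).

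The suckling program around the members moved in both directions. Of 7 tested suckling markers, Nox4 (log2 change -4.00, SE 0.49, adjusted p = 3.73e-11), Fcgrt and Lct (-0.81, adjusted p = 0.0442) were lower, and Glb1 and Prdm1, the repressor known to hold the suckling state (1.13, adjusted p = 0.000298), were higher. Lct was not called by the quasi-likelihood test (adjusted p = 0.0627). Of 3 adult markers Sis, sucrase-isomaltase, was higher (1.79, adjusted p = 0.000467) at no more than 13.1 CPM in any library. Among 12 transcription factors of the epithelium, 3 were called, all higher, beside 9.73% of all tested genes called higher. They were Hnf4a (1.08, adjusted p = 0.00281), Hnf4g (1.31, adjusted p = 0.00323) and Prdm1. Over all lists, 39 of 184 tested genes other than the members were called with 10 libraries and 8 with replicates 1 to 3 alone, beside 18.5% and 3.36% of all tested genes. These 8 were Ctsl, Nox4, Cybrd1, Krt20, S100b, Afp, Ttr and Slc34a1.

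The genes most like each member across the 10 libraries were sought among 9732 genes with a mean of 5 CPM or more, as a description in which the libraries share 2 groups and the GC differences above. For Cubn these were St3gal1 (Pearson r = 0.993 of log2 CPM, 0.975 for deviations from group means), Adamdec1 (0.985) and Zdhhc19 (0.985), with log2 changes of -1.71, -1.24 and -2.16. For Mcoln3 they were Enpp5 (r = 0.993), D330045A20Rik (0.989) and Gnpda1 (0.985), and for Dab2 C2 (0.962), 1700011H14Rik (0.957) and Cux1 (0.949). Amn was most like Tbcc (0.996), Abhd17a (0.994) and March2 (0.993), and Pllp most like Zfp513 (0.991), Dcaf12 (0.989) and Stat5b (0.989). For Lrp2, with 0 to 23 counts per library, the highest values were Gpr65 (0.836), Tmem14a (0.834) and Gm20748 (0.792). Between members, r of the deviations from group means was 0.982 for Cubn and Dab2, 0.844 for Cubn and Mcoln3 and 0.111 for Cubn and Amn.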

How the data were processed

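RNA of whole jejunum from 5 WT and 5 KSR23 libraries at postnatal day 5 was measured by sequencing. The deposited values were counts: the authors mapped single-end reads of 75 bases to build mm10 with TopHat (2.1.0 in the submitters' processing notes) and counted reads lying strictly within gene models with htseq-count (0.6.1p1), without normalisation. Total RNA (100 pg) was primed with oligo-dT and amplified with 15 and then 12 cycles of PCR, without molecular identifiers, so counting floors cover counting error only. The strand setting is not given in the sources used here. The counter's summary rows were left out of library sizes and tests, and no column was left unused.

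Groups and replicate numbers came from the sample titles. Library totals (25.5 to 60.9 M) were scaled in edgeR 4.0.16 under R 4.3.3 by the trimmed mean of M-values (TMM). A gene was tested where any library had 5 counts or more (17632 genes). Negative binomial models with group as the term were compared by the likelihood ratio test, as in the study, with the quasi-likelihood test beside it, Benjamini-Hochberg adjustment over all genes and a threshold of 0.05. The steps were tested on simulated data. Log2 fold changes are KSR23 over WT, and intervals are 1.96 SE. Log2 CPM used a pseudocount of 0.5 CPM, and ratios of genes 0.5 added counts. Ratios and levels relative to 8 epithelial genes were compared by two-sided exact permutation over 252 assignments, adjusted over 6 tests each. Gene positions, lengths and GC content came from GENCODE M21 (22750 of 24062 symbols found).

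The 6 genes, the 18 other lists and the tests were chosen with earlier results of these data known, and lists were described by counts, without set tests. Most listed genes entered by their counts and medians alone, and a few genes first listed and 1 of the 6 ratios are not reported here. Named were all members, up to 4 called genes per list with the largest change, every paralog of 3 families, and the 3 genes most like each member. Other genes named were chosen after their values were seen. Alternatives were DESeq2 1.42.0, relative log expression (RLE) factors, library totals, other filters, a replicate block, and libraries left out. A GC offset, Lrp2 counts held at the floor, the omission of WT replicate 1 and KSR23 replicate 3, and the quasi-likelihood test on replicates 1 to 3 were chosen after seeing the data.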

Additional observations from a re-analysis of the deposited data

Results flagged for a closer look

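In 34 groups of 5 libraries scanned for a library set apart from the rest (a gap to the nearest value beyond Dixon's 95% limit), 2 were found, where chance gives about 1.7. Dab2 was low in WT replicate 3, at 8.91 log2 CPM with the next library at 9.15, in a group of otherwise narrow spread. Lrp2 relative to epithelial genes was high in WT replicate 5, at -11.8 on the log2 scale with the next WT library at -13.7, and rested there on 23 counts.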

How the results depend on the processing

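Cubn was lower under every alternative tried, with log2 fold changes from -2.74 to -2.07, and was called in all but those that left out replicates 4 and 5: -2.22 with either test of edgeR and -2.61 without WT replicate 1 and KSR23 replicate 3, the libraries low in GC-rich transcripts, as well (adjusted p = 0.151, 0.330 and 0.0966). Leaving out 1 library gave -2.74 to -2.07 for Cubn and -1.20 to -0.70 for Mcoln3. Mcoln3 was not called by the quasi-likelihood test (-0.92), with the replicate block (-1.02, adjusted p = 0.0589), without replicates 4 and 5 (-0.71 by both tests) and without these and the 2 libraries low in GC-rich transcripts (-0.88). Lrp2 was called without WT replicate 1 and KSR23 replicate 3 (-2.91, adjusted p = 0.0174) and without those and replicates 4 and 5 (-4.57, adjusted p = 0.0466), and ran from -2.68 to -1.42 with 1 library left out. With 5 counts required in every library Lrp2 was not tested. The sign of uncalled values changed for Dab2 (0.055 by both tests without replicates 4 and 5, and -0.19 to 0.20 with 1 library left out, higher without WT replicate 2 or KSR23 replicate 2), Amn (-1.99 to 0.23) and Pllp (-0.10 to 0.73).

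Members called were 1 by the quasi-likelihood test, 1 with the replicate block, 0 without replicates 4 and 5 by either test, 1 without these and the 2 libraries low in GC-rich transcripts, and 1 to 3 with 1 library left out. Other listed genes called were 39 of 184 in the main comparison, 8 without replicates 4 and 5 (1 by the quasi-likelihood test), 8 without those 2 as well, and 26 to 54 with 1 library left out. Over all genes these settings gave 579, 140 and 677 calls, against 3261. Fewer libraries entered these fits, and other causes were not tested. The GC offset moved the median log2 fold change of all genes from 0.03 to -0.09. With it 1884 genes were called lower and 1465 higher, against 1545 and 1716 in the main comparison.

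The Cubn to Dab2 difference was -2.70 without replicates 4 and 5, where the exact test cannot pass, and -2.79 to -2.30 with 1 library left out. The small uncalled difference of Mcoln3 to Mcoln1 changed sign with 1 library left out (-0.19 to 1.01). Relative to epithelial genes without replicates 4 and 5, Cubn gave -3.52, Lrp2 -3.16 and Mcoln3 -1.51, where again no pass was possible, and beside mean log2 CPM Lrp2 gave -3.07 and Mcoln3 -1.61, not passing. With 1 library left out these were -3.92 to -2.78 for Cubn (not passing without WT replicate 1, 4 or 5), -3.86 to -2.52 for Lrp2 (not passing without any 1 WT library), -2.03 to -1.38 for Mcoln3 (passing without KSR23 replicate 3 and no other) and -0.87 to 0.12 for Pllp. The values of Lrp2 rest on counts of 0 and 1 in KSR23 and on the 0.5 added to them. With counts under 3 set to 3 its difference was -2.24, still passing. The cause was not tested.

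The labels do not say what same-numbered libraries share, and their deviations from group means correlated at -0.75, 0.41, -0.69, 0.35 and 0.52 for replicates 1 to 5, so they were not taken as pairs. The replicate block gave 2202 calls over all genes and changed the call of Mcoln3 and of no other member, and it moved the uncalled value of Amn to -2.05 (adjusted p = 0.373).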
